A study of Mus musculus with 24 samples.

Results

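The genes Mup3, Mup10, Hectd2, 1810046K07Rik, C730036E19Rik, Upp2, Nudt7 and Lrtm1 had much lower signal in hepatocellular carcinoma (HCC) than in vehicle control liver. Their median intensities in vehicle control liver ran from 572 (Lrtm1) to 23477 (Mup3). They were chosen by name because of that difference between HCC and vehicle control liver, so all values of that contrast describe the choice and carry no test. They are 8 of 14086 genes tested, and they are read by 17 of the array's 45101 probe sets. All 17 probe sets passed the filter on low signal, which asks that at least 6 arrays exceed an intensity of 66.3, so a gene that is bright only in normal liver also passes.

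The study profiled liver tissue of B6C3F1 mice from a bioassay of Ginkgo biloba extract, given by gavage in corn oil to both sexes, on 5 days of each week over 2 years, at 0, 200, 600 or 2000 mg/kg. The 24 arrays form 4 groups of 6: vehicle control normal liver, adjacent non-tumour liver (titled BDCA_Normal), HCC (BDCA_HCC) and hepatoblastoma (HB, BDCA_HB), a liver tumour of embryonal type that the design text places beside HCC. All animals of the bioassay shared strain, vehicle and gavage schedule, but the labels give no dose, sex, age or animal for a single array. Nothing in them says that each array of a group came from a separate mouse, so the p-values measure the spread between these arrays, which may be partly technical. Some arrays stood apart: HB replicates 4 and 5 had far more albumin signal than the other 4, HCC replicates 3 and 4 were close to copies of each other and count as 1 sample, non-tumour replicate 1 deviated from its group together with HCC replicate 1, and 5 arrays carried signal for Xist, a marker of female tissue.

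The genes fall into several roles. Major urinary proteins such as Mup3 and Mup10 are small lipocalins that liver secretes in bulk, that pass into urine and carry volatile pheromones; many of their genes are male-biased under pulsatile growth hormone acting through STAT5. Upp2 encodes a uridine phosphorylase, which cleaves uridine to uracil and ribose 1-phosphate at the entry of pyrimidine breakdown. Nudt7 encodes a peroxisomal Nudix hydrolase that cleaves coenzyme A and acyl-CoA. Hectd2 encodes a ubiquitin ligase of the HECT family, C730036E19Rik is a long non-coding RNA with the synonym lncLSTR that is known from liver lipid work, and Lrtm1 encodes a membrane protein with leucine-rich repeats. 1810046K07Rik is annotated as protein coding.

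Mup3 and Mup10 both lie in the urinary protein cluster. Their upstream sequences are shown because the 2 genes had different signal patterns on their probe sets, while part of their promoters is much alike. The 250 bases before each RefSeq start (GRCm38.p6) follow, on the minus strand at chr4:62087318-62087567 for Mup3 and at chr4:60582156-60582405 for Mup10. Capitals mark the 3 runs of at least 15 bases that both promoters share in the same order, 63 bases in all, the longest of 29 bases.
Mup3: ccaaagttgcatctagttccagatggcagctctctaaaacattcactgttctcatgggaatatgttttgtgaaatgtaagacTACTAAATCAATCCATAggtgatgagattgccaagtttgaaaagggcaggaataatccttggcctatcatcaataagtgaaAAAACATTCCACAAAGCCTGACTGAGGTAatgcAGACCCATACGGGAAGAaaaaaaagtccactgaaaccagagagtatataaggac
Mup10: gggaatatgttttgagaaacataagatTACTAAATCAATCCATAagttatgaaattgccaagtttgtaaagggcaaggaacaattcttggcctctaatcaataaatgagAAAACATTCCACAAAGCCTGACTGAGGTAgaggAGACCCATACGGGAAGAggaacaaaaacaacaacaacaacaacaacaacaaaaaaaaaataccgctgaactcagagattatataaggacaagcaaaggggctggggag
In an alignment of both, 172 of 195 aligned bases were identical (88.2%), and the rest of each 250 bases was not aligned.

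Mup3 was lower in each step from vehicle liver to non-tumour liver, HCC and HB. Its intensity on the main probe set in vehicle liver had a lowest value of 15433, a median of 23477 and a highest value of 34846. In non-tumour liver the lowest, median and highest values were 1631, 10366 and 20293. The HCC arrays were the most unequal of the 4 groups. They ran from 10.1 in replicate 5 through a median of 2550 to 10788 in replicate 4, and the HB arrays from 7.03 through a median of 32.3 to 190. Every HB array thus lay below every vehicle and non-tumour array, while HCC reached up into the range of non-tumour liver. The difference of HCC from vehicle liver was -4.81 (SE 0.96) in log2(intensity + 16), and the difference of HB from non-tumour liver was -7.18 ± 0.92 (SE; limma, adjusted p = 2.9e-07). A second Mup3 probe set was dim (60.4 to 167 in vehicle liver) and gave -2.25 for HCC against vehicle liver. Both Mup3 probe sets carry the suffix that the array maker uses for probes that can match related transcripts, so the signal may sum several urinary protein genes. In tissue RNA such as this, fewer hepatocytes and less RNA per hepatocyte cannot be told apart.

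Mup10 behaved differently between arrays of normal liver. Its vehicle intensity ranged from 559 through a median of 2479 to 9622, its non-tumour intensity from 30.6 through 165 to 950. In HCC all 6 arrays lay between 5.16 and 16.9, below the filter's 66.3. In HB the lowest value was 3.22, the median 33.3 and the highest 451, in replicate 4. The HCC arrays were thus close together for Mup10 and wide apart for Mup3: the SD of log2(intensity + 16) over the 5 HCC samples was 0.25 for Mup10, where the added 16 compresses low values, and 3.37 for Mup3. The HCC difference from vehicle liver was -6.42 (SE 0.79). HB against non-tumour liver gave -1.60 ± 0.75 (SE; limma, adjusted p = 0.0731), with the groups overlapping. That difference passed the threshold without HB replicate 4 (-2.21, limma adjusted p = 0.00891), and without non-tumour replicate 1 (-1.97, 0.0311) or 6 (-1.86, 0.0485). With all arrays kept, it also passed after quantile normalisation (-1.95) and after centring arrays on their medians (-2.23).

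On its main probe set, Upp2 had similar medians in vehicle and non-tumour liver, was lower in HCC, and lay in HB below every HCC array. Vehicle intensities were 9044 at the lowest, 11230 at the median and 19515 at the highest, and non-tumour liver covered 2480, 10246 and 26250. HCC had a median of 929, with 307 in replicate 5 as the lowest and 7621 in replicate 1 as the highest. HB had 0.25, 2.73 and 37.0, so all 6 arrays were below the filter's 66.3. The log2 difference of HCC from vehicle liver was -3.57 (SE 0.60) and became -4.30 without HCC replicate 1. HB lay below non-tumour liver by -8.67 ± 0.57 (SE; limma, adjusted p = 1.93e-12), with no overlap. The other Upp2 probe sets gave -3.91 and -2.41 for HCC against vehicle liver. In the same order they gave -7.76 and -2.53 for HB minus non-tumour liver, and -4.15 and -0.59 for HB minus HCC. HB overlapped with HCC on both, and with non-tumour liver on the one at -2.53.

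Nudt7 stepped down from group to group. Vehicle liver ran from 4946 through 8743 to 20240, non-tumour liver from 2694 through 4991 to 5896. HCC ran from 1188 through 1781 to 2495, and HB from 257 through 332 to 584. On this main probe set, HCC did not overlap with non-tumour liver, nor HB with HCC. Only vehicle and non-tumour liver shared part of their range there. The HCC difference from vehicle liver was -2.49 (SE 0.30), the smallest of the 8, and HB was -3.67 ± 0.29 below non-tumour liver (SE; limma, adjusted p = 4.53e-11). The 3 further probe sets gave -2.70, -2.60 and -1.48 for HCC against vehicle liver. In the same order they gave -2.18, -3.15 and -1.22 for HB minus non-tumour liver, and -0.86, -1.53 and -0.26 for HB minus HCC. HCC overlapped with non-tumour liver on all 3, and HB with HCC on those at -0.86 and -0.26.

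Hectd2 was read by 1 bright and 2 dim probe sets that did not move together. On the bright one, vehicle intensities were 5479, 8649 and 12158 at the lowest, median and highest, and non-tumour intensities 96.8, 4763 and 8194. HCC had 180, 223 and 1188, and HB 26.9, 692 and 921. The low non-tumour value was replicate 1, which lay inside the tumour range, and the low HB value was replicate 4. HCC differed from vehicle liver by -4.72 (SE 0.84), HB from non-tumour liver by -2.73 ± 0.80 (SE; limma, adjusted p = 0.00527). The dim probe sets, with vehicle medians of 105 and 53.4, gave 0.18 and -0.78 for HCC minus vehicle liver, and 1.31 and 1.66 for HB minus non-tumour liver, in that order. With the mean of all 3 probe sets, the HB difference was 0.08 ± 0.45 (SE; limma, adjusted p = 0.89), so the call for Hectd2 rests on the bright probe set.

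The gene Hectd2os, which RefSeq lists next to Hectd2 as its opposite-strand transcript, had the signal most like Hectd2 of all genes outside the 8. Its lowest, median and highest intensities were 217, 310 and 586 in vehicle liver, 14.1, 253 and 516 in non-tumour liver, 2.8, 21.6 and 50.6 in HCC, and 4.41, 28.8 and 50.5 in HB. Pearson's r with Hectd2 was 0.95 over 23 samples, and 0.86 for deviations from group means. Non-tumour replicate 1 and HB replicate 4 were the lowest of their groups for both genes, and the averaged HCC replicates 3 and 4 the highest. The log2 difference of Hectd2os was -3.38 (SE 0.52) for HCC minus vehicle liver and -2.34 (SE 0.50) for HB minus non-tumour liver; both are given without a test, since the gene is described here for its likeness to Hectd2 on the same arrays. How far each probe set reads only its own strand's transcript was not tested.

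**Figure D1:**
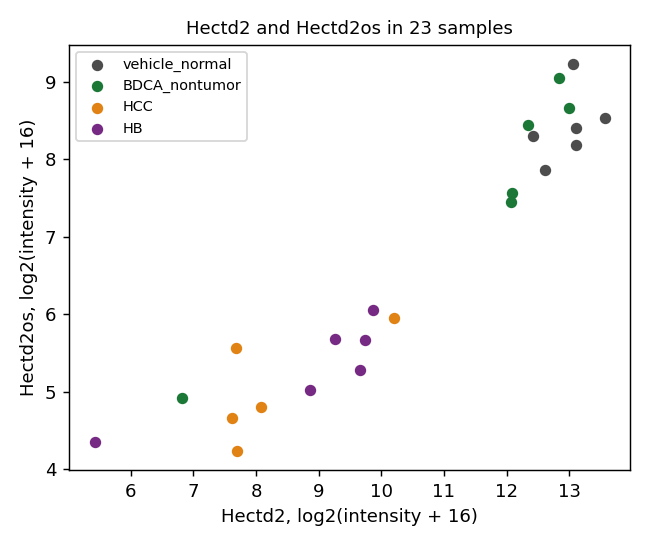
Hectd2 (x axis) against Hectd2os (y axis), both as log2(intensity + 16), 1 point for each of 23 samples coloured by group. Vehicle and 5 non-tumour samples lie at the upper right, while non-tumour replicate 1 (Hectd2 at 6.82) lies among the tumour samples.

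C730036E19Rik, the non-coding RNA, had vehicle intensities of 666, 1320 and 2258 at the lowest, median and highest. Non-tumour liver had 65.3, 783 and 1441, with replicate 1 again the lowest. HCC had 6.51, 65.5 and 405, and HB 4.12, 14.3 and 46.8. Apart from that non-tumour replicate, the non-tumour arrays all exceeded every HCC array, and the HB arrays were below the filter's 66.3 throughout. The log2 differences were -4.17 (SE 0.63) for HCC from vehicle liver and -4.17 ± 0.60 for HB from non-tumour liver (SE; limma, adjusted p = 1.7e-06).

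1810046K07Rik was the 1 gene of the 8 whose non-tumour arrays all lay below the vehicle arrays. Vehicle liver had 734, 1398 and 2029 at the lowest, median and highest, and non-tumour liver 1.71, 247 and 438. HCC had 1.22, 20.3 and 216, and HB 1.37, 10.4 and 20.3. The 1.71 came from non-tumour replicate 6, the one array of that group with Xist signal. HCC differed from vehicle liver by -4.57 (SE 0.68), non-tumour from vehicle liver by -2.97, and HB from non-tumour liver by -2.64 ± 0.65 (SE; limma, adjusted p = 0.0012).

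Lrtm1 was low in HCC but not uniformly so in HB. Vehicle liver had 400, 572 and 933 at the lowest, median and highest. Non-tumour liver had 53.9, 200 and 508. HCC had 5.45, 14.8 and 34.4, all below the filter's 66.3, whereas HB had 7.21, 84.5 and 402 and overlapped with non-tumour liver over most of its range. HCC differed from vehicle liver by -4.14 (SE 0.58). HB differed from non-tumour liver by -0.85 ± 0.56 (SE; limma, adjusted p = 0.197), which did not pass the threshold but did after quantile normalisation (-1.38, 0.0307) and after centring arrays on their medians (-1.48, 0.0215). A second probe set gave -2.72 for HCC against vehicle liver and -1.48 for HB minus non-tumour liver. For HB minus HCC it gave 0.43, where the main probe set gave 1.65.

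**Figure D2:**
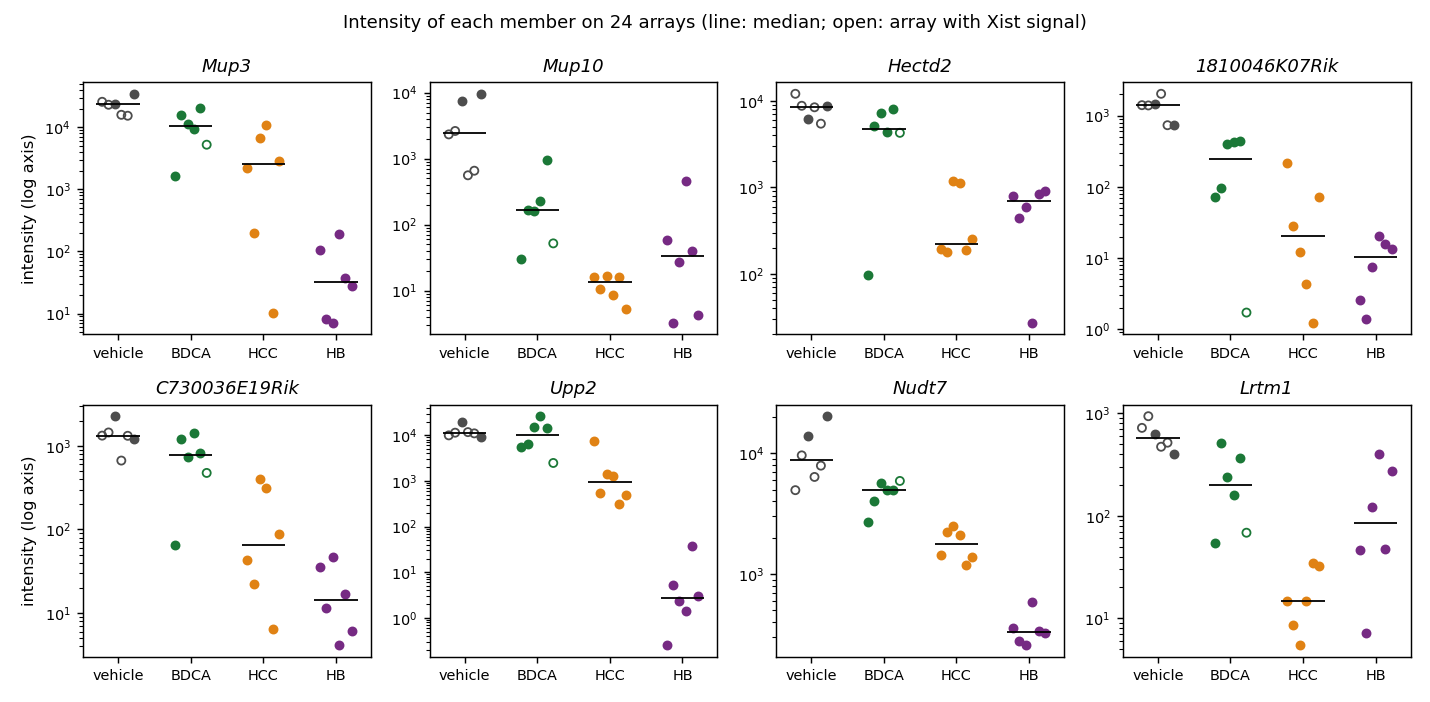
Intensity of the 8 genes on each of 24 arrays (log y axis), 1 panel per gene, by group; the line is the median and open circles are arrays with Xist signal. HCC lies below vehicle liver in all panels, while the HB median lies below the HCC median for 5 genes and above it for Mup10, Hectd2 and Lrtm1.

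Side by side, the choosing contrast gave the 8 genes a median log2 difference of -4.37, against 0.08 over all genes tested, of which 44% were negative. On the log2(intensity + 16) scale the fold differences were 85.4 for Mup10, 28.1 for Mup3, 26.4 for Hectd2, 23.7 for 1810046K07Rik, 18 for C730036E19Rik, 17.6 for Lrtm1, 11.8 for Upp2 and 5.63 for Nudt7. Ordered from the lowest difference upwards, 7 of the 8 stood among the first 18 genes, and Nudt7 stood at 64. Genes outside the set that stood among the first 10 were Sult2a8 (-6.77), Xist (-5.01), Cyp2b13 (-4.68), Cyp2f2 (-4.53) and Hamp2 (-4.30). In all 8 genes every HCC array was below every vehicle array, which was also true of 2.38% of all genes, and 2.87% of all genes were called lower in that contrast. Since the genes were picked on it, nothing is read from these counts. Where HCC or HB values lie near the added 16, the size of a fold is set partly by that constant.

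HB against non-tumour liver is the comparison in which the 8 genes were tested. Its log2 differences used no array of the choosing contrast. The SEs and p-values come from the fit of all 4 groups, so their spread also draws on the HCC and vehicle arrays. In a fit of the 2 groups alone, no call of the 8 changed. All 8 differences were negative, with a median of -3.20 against 0.28 over all genes tested. Mup3, Hectd2, 1810046K07Rik, C730036E19Rik, Upp2 and Nudt7 were lower at an adjusted p under 0.05, 6 of 8, where 22.4% of all genes were called lower and 34.1% higher. In 4 of the 8 (Mup3, C730036E19Rik, Upp2 and Nudt7) the groups did not overlap, against 13.4% of all genes that were lower without overlap. Mup10 and Lrtm1 did not pass. Without HB replicates 4 and 5, and likewise without non-tumour replicate 1, 7 of the 8 passed, Mup10 being the one added. Upp2 and Mup3 were already known from earlier results on these arrays to be very low in HB, so their 2 calls add nothing independent.

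**Figure D3:**
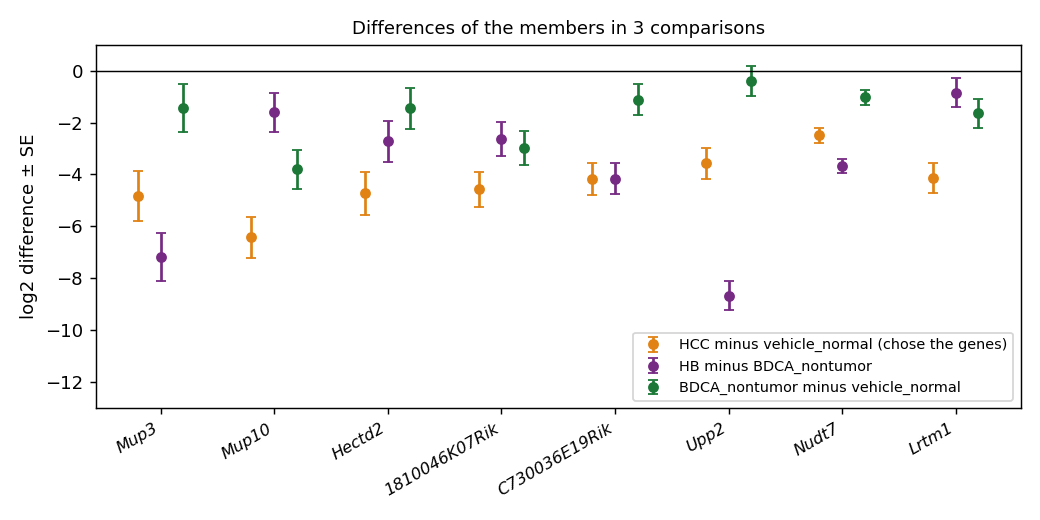
Log2 difference (y axis) with its SE for each of the 8 genes in 3 comparisons from 1 fit. HB minus non-tumour liver spans -8.67 (Upp2) to -0.85 (Lrtm1), while non-tumour minus vehicle liver spans -3.80 (Mup10) to -0.40 (Upp2).

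Cell type marker sums differed between groups, for hepatocyte, macrophage, endothelial and biliary markers mainly in HB. The summed intensity of 13 of 15 hepatocyte markers ran from 331990 to 491821 in vehicle liver, 293427 to 430057 in non-tumour liver, 224407 to 407656 in HCC and 902 to 91377 in HB (median 2966), with the 2 highest HB sums in replicates 4 and 5. Their part in the HB differences was not tested. HB also had lower sums of 11 macrophage markers (2220 to 6642) than vehicle liver (19387 to 63465), non-tumour liver (28422 to 50388) and HCC (7736 to 52742). Marco, Timd4 and Vsig4 were below 66.3 on all HB arrays. Sums of 11 endothelial markers were 1281 to 5519 in HB, 12361 to 14917 in vehicle liver and 8596 to 16541 in non-tumour liver. In HCC they ran from 4456 to 19485 and overlapped with HB. Clec4g and Tek were below 66.3 on all HB arrays. Biliary markers, 4 of 7 tested, were higher in HB (1030 to 3883) than in vehicle liver (105 to 564) and non-tumour liver (87 to 537). In HCC they reached 1157. Lymphocyte markers, 7 of 11 tested, had medians of 5046 in vehicle liver, 1609 in non-tumour liver, 615 in HCC and 647 in HB. Stellate cell and fibroblast markers, 10 of 10, had medians of 16112, 9760, 16716 and 10307 in the same order. Erythroid markers, 2 of 5 tested, had medians of 810, 1045, 1028 and 1100 in that order.

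The other comparisons share arrays with the choosing contrast and are given as values. In HB against vehicle liver the differences were -9.07 for Upp2, -8.63 for Mup3, -5.61 for 1810046K07Rik, -5.39 for Mup10, -5.30 for C730036E19Rik, -4.70 for Nudt7, -4.18 for Hectd2 and -2.49 for Lrtm1. Without overlap were 7 of the 8, beside 16.1% of all genes. With the 5 Xist arrays left out, Mup10 was at -7.25 and Nudt7 at -5.55, and the other 6 moved by less than 0.4. In HCC against non-tumour liver the differences lay between -3.36 (Mup3) and -1.46 (Nudt7), with 3 of 8 not overlapping beside 0.447% of all genes; 1810046K07Rik was at -1.60, and at -2.23 without the Xist array. In HB against HCC on the main probe sets, Upp2 (-5.50), Mup3 (-3.82), Nudt7 (-2.21), C730036E19Rik (-1.13) and 1810046K07Rik (-1.04) were negative. Only Upp2 and Nudt7 did not overlap there, 2 of 8 beside 11.9% of all genes. Lrtm1 (1.65), Mup10 (1.02) and Hectd2 (0.55) were positive, but Hectd2 turned to -0.04 when arrays were centred on their medians. The order of groups by mean log2 was thus vehicle, non-tumour, HCC, HB for 5 genes and vehicle, non-tumour, HB, HCC for Mup10, Hectd2 and Lrtm1.

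Several neighbours in that order did not differ by more than their pooled SD. For Mup10, non-tumour liver and HB differed by 1.60 with a pooled SD of 1.61, and HB and HCC by 1.02 with 1.20. For Hectd2, HB and HCC differed by 0.55 with a pooled SD of 1.43. For Upp2, vehicle and non-tumour liver differed by 0.40 with a pooled SD of 0.91. For 1810046K07Rik, non-tumour liver and HCC differed by 1.60 with a pooled SD of 1.70, and HCC and HB by 1.04 with 1.11. For C730036E19Rik, vehicle and non-tumour liver differed by 1.13 with 1.14, and HCC and HB by 1.13 with 1.19. Vehicle and non-tumour liver differed by 1.45 with 1.68 for Hectd2, and non-tumour liver and HB by 0.85 with 1.37 for Lrtm1. All 3 steps exceeded the pooled SD for Mup3 and Nudt7, and only for Nudt7 did the last 2 leave no overlap.

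Non-tumour liver was lower than vehicle liver in all 8 genes, with a median difference of -1.45 against 0.01 over all genes. The differences were -3.80 for Mup10, -2.97 for 1810046K07Rik, -1.64 for Lrtm1, -1.45 for both Mup3 and Hectd2, -1.13 for C730036E19Rik, -1.03 for Nudt7 and -0.40 for Upp2. Only 1810046K07Rik had groups that did not overlap, 1 of 8 beside 0.589% of all genes. Non-tumour replicate 1 was the lowest array of its group in 6 of the 8 genes, at a median of -3.78 from the vehicle mean, where the other 5 arrays had medians of -0.65 to -2.16. Without it the median over the 8 genes became -0.93, and the differences -0.51 for Hectd2, -0.55 for C730036E19Rik and -0.99 for Mup3. Mup10 was at -3.42 and 1810046K07Rik at -2.80 without it. Xist signal was on 4 of 6 vehicle arrays and 1 of 6 non-tumour arrays, and leaving out those 5 moved non-tumour minus vehicle liver to -5.39 for Mup10, -1.95 for Nudt7, -2.12 for 1810046K07Rik, -1.18 for Lrtm1 and -0.21 for Upp2, with the other 3 between -1.69 and -1.43. Over all genes, the deviations of non-tumour replicate 1 and HCC replicate 1 from their group means correlated at r = 0.50, where most other pairs of equal number lay near 0; what the 2 tissue pieces contained was not tested.

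**Figure D4:**
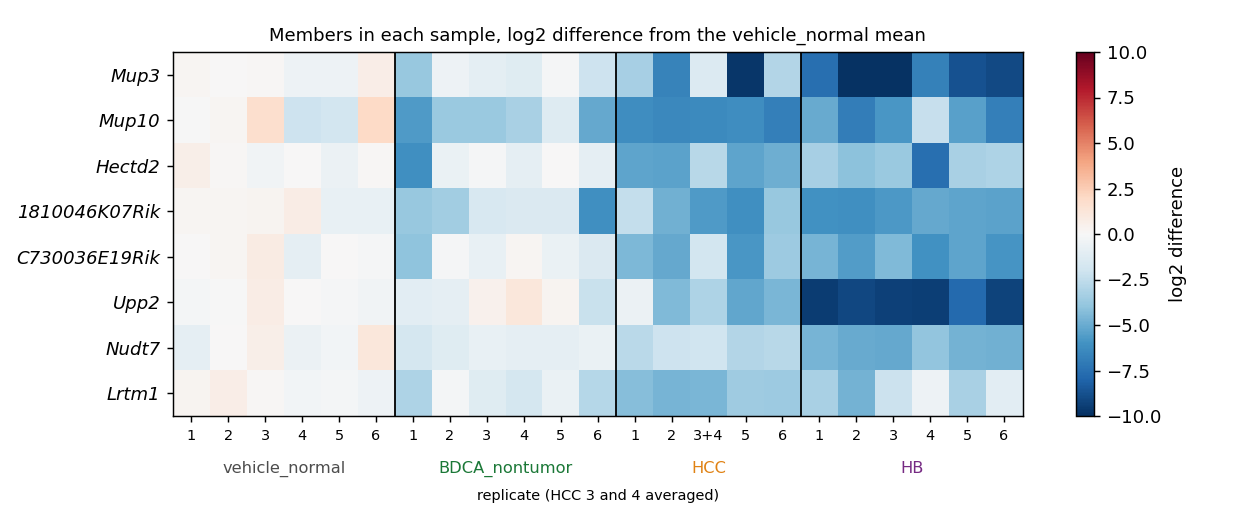
Log2 difference of each of the 8 genes (rows) from its vehicle mean in each of 23 samples (columns, by group and replicate), in blue where lower. Non-tumour replicate 1 is darker than its group, and Mup10 and Nudt7 differ between vehicle arrays.

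Within HCC the arrays were unequal as well. Replicate 5 was the lowest HCC sample in 5 of the 8 genes, with Mup3 at 10.1 and 1810046K07Rik at 1.22, and the averaged replicates 3 and 4 were the highest in 4. HCC replicates 3 and 4 had the highest correlation of any pair within a group (r = 0.98 across genes) and were counted as 1 sample. HCC replicate 5 had signal neither for Xist (29.3) nor for the Y-linked gene Eif2s3y (30.4). In HB, replicate 4 was the highest in 5 genes, with Mup10 at 451, Lrtm1 at 402 and Mup3 at 190, and yet it was the lowest for Hectd2. HB replicates 4 and 5 also had albumin (Alb) intensities of 28758 and 15782, where the other 4 HB arrays had 229 to 1630.

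The sexes of the mice are not labelled, but 5 arrays had Xist intensities above 1000: vehicle replicates 1, 2, 4 and 5 and non-tumour replicate 6. Among vehicle arrays, Mup10 was 7595 and 9622 on the 2 without Xist signal and 559 to 2627 on the 4 with it. Nudt7 was 13922 and 20240 without it and 4946 to 9596 with it. The other 6 genes overlapped between these arrays, Mup3 included (23760 and 34846 against 15433 to 25890), and 6.4% of all genes had both arrays without Xist signal above the 4 with it. With the 5 Xist arrays left out, HCC minus vehicle liver became -8.27 for Mup10 and -3.34 for Nudt7, and lay between -5.18 and -3.74 for the other 6.

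Deviations from group means were mostly positively correlated among the 8 genes. Over 23 samples the within-group r of the 28 pairs had a median of 0.31 and ran from -0.05 to 0.76, with 27 of 28 positive. The highest were 1810046K07Rik with Upp2 (0.76), Hectd2 with C730036E19Rik (0.72), Mup3 with C730036E19Rik (0.68) and Mup10 with Nudt7 (0.63). These are descriptions over arrays that share library effects and, in part, the replicates named above. Pairs of other genes were not set beside them, so the values are not shown to be particular to the 8.

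Outside the 8, the genes most like each one by Pearson's r over 23 samples are given with r as a description. Mup3 was most like Ido2 (r = 0.97), which degrades tryptophan, followed by Pigr (0.96), the polymeric immunoglobulin receptor, and Wfdc21 (0.95). Upp2 was most like Ugt3a1 (0.98), a glycosyltransferase, and then Hacl1 (0.97), a peroxisomal lyase of fatty acid alpha-oxidation, and Gcdh (0.97), a mitochondrial dehydrogenase of lysine breakdown. Nudt7 was most like Pecr (0.96), a peroxisomal enoyl-CoA reductase, then Cmah (0.96) and Msrb1 (0.96). C730036E19Rik and 1810046K07Rik were both most like the sulfotransferase gene Sult2a8 (0.94 and 0.90). Ido2 (0.93) and Etnppl (0.92) followed for C730036E19Rik, and Gna14 (0.88) and Sucnr1 (0.88) for 1810046K07Rik. Mup10 was most like Nlrp5-ps (0.85), then Sult2a8 (0.83) and the carbonic anhydrase gene Car1 (0.81). Hectd2 was followed after Hectd2os by Zfp707 (0.90) and Spg20 (0.88). Lrtm1 had the lowest likeness, with Selenow at 0.79, Car1 at 0.76 and Hectd2os at 0.76. The within-group r was lower throughout, from 0.35 to 0.86.

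The nearest tested genes on each side of the 8 genes, 15 in all, had a median of -0.09 in HCC against vehicle liver. Only Hectd2os passed the threshold there, and as said above it is given without a test, so nothing is read from that. In HB against non-tumour liver 7 fell and 3 rose, with Hectd2os counted among the 7. Over all genes, 22.4% fell and 34.1% rose. Untested genes can lie between: for Mup10, 8 and 12 coding genes lay between it and its nearest tested genes. Prg4, near C730036E19Rik, fell (-4.52, SE 0.41), as did Fdx1, near 1810046K07Rik (-1.97, SE 0.20). Zfp37, near Mup3, rose by 3.61 (SE 0.58) and Wnt5a, near Lrtm1, by 3.44 (SE 0.55). All 4 passed in limma at an adjusted p under 0.05, and each was separated by 1 coding gene. With no coding gene between, Pcgf5 beside Hectd2 (-1.76, SE 0.28) and Selenok beside Lrtm1 (-0.96, SE 0.27) fell. Pkp4, near Upp2, fell as well (-0.71, SE 0.18), as did Mup5, near Mup3 and Mup10. Wwox, near Nudt7, rose by 1.14 (SE 0.30).

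Lists of related genes, without the 8 themselves, were tested across all genes in the same fit. Of other urinary proteins and lipocalins, 10 of 28 listed genes were tested. Mup5 was the only urinary protein gene among them, so the list medians describe mainly other lipocalins. In HCC against vehicle liver 1 fell and 1 rose, with a median of -0.27: Ptgds, prostaglandin D synthase, fell (-2.97, SE 0.78; limma, adjusted p = 0.0205), and Lcn2, the iron-siderophore carrier lipocalin 2, rose by 2.90 (SE 0.85; 0.0383, or 0.0555 with arrays centred on their medians). HB against non-tumour liver gave 8 falls and 1 rise, with a median of -6.04. The smallest adjusted p belonged to the acute-phase orosomucoid gene Orm1 (-8.68, SE 0.66), followed by Apom, a carrier of sphingosine 1-phosphate (-6.02, SE 0.62), Ambp (-6.95, SE 0.76) and Lcn2 (-7.16, SE 0.81), while Ptgds rose by 2.45 (SE 0.74; limma, adjusted p = 0.00697). Mup5 fell by 1.10 in HB (SE 0.46; adjusted p = 0.0447).

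Sex-biased liver genes bear on the urinary proteins, many of which are male-biased. Of 12 male-biased genes tested, 1 fell in HCC against vehicle liver (Ugt2b1, -1.76, SE 0.43; limma, adjusted p = 0.0124), with a median of -0.51. Of 13 female-biased genes, 3 fell, with a median of -1.41: the cytochrome P450 genes Cyp2b13 (-4.68, SE 0.86; adjusted p = 0.00135) and Cyp2b10 (-3.82, SE 0.85; 0.00731), and Atp6v0d2 (-1.69, SE 0.50; 0.0376). These counts moved with the Xist arrays: without them 4 male-biased genes fell, with a median of -2.37, while 1 female-biased gene rose and their median was 1.45. In HB against non-tumour liver, where 1 array had Xist signal, 8 male-biased genes fell and 1 rose (median -3.72), and 10 of the 13 female-biased genes fell (median -4.03). Examples were Ugt2b1, which fell (-7.37, SE 0.41), Cyp7b1, an oxysterol hydroxylase (-5.93, SE 0.65), Cyp17a1, a steroid hydroxylase (-6.37, SE 0.54) and Cyp2b9 (-5.63, SE 0.69).

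Of 17 genes of growth hormone signalling and its partner factors, 3 fell in HCC against vehicle liver, with a median of -0.26: Ghr, the growth hormone receptor (-1.37, SE 0.35; limma, adjusted p = 0.0167), Igfals, which stabilises IGF1 in plasma (-1.22, SE 0.32; 0.0202) and the transcription factor Cebpa (-1.07, SE 0.28; 0.0204). The call for Ghr was lost after quantile normalisation (adjusted p = 0.0602). Against non-tumour liver, 9 fell and 3 rose in HB, with a median of -0.65. Hnf4a fell (-5.73, SE 0.58), Cebpa (-4.54, SE 0.27), Ghr (-4.04, SE 0.33) and Cebpb (-3.92, SE 0.25). Stat5a, Bcl6 and Foxa2 rose by 1.15, 0.96 and 1.01, and none of these 3 kept its call with arrays centred on their medians.

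Of 21 genes of uridine and pyrimidine metabolism, the pathway of Upp2, 1 fell and 2 rose in HCC against vehicle liver, with a median of 0.15. Dpyd, which degrades uracil, fell (-1.26, SE 0.39; limma, adjusted p = 0.0453, or 0.0521 after quantile normalisation), while the CTP synthases Ctps (2.25, SE 0.54; 0.0116) and Ctps2 (1.18, SE 0.27; 0.00792) rose; Ctps2 lost its call with median centring (0.0651). In HB against non-tumour liver 8 fell and 5 rose, with a median of -0.28. The catabolic enzymes that act after Upp2 fell: Dpyd (-7.84, SE 0.37), Dpys (-6.03, SE 0.38) and Upb1 (-3.32, SE 0.30), as did Agxt2 (-6.18, SE 0.32). Upp1, the other uridine phosphorylase, rose by 1.16 (SE 0.44; limma, adjusted p = 0.0278), the kinase Uck2 by 1.55 (SE 0.46) and Ctps by 1.67 (SE 0.52), and none of the 5 rises kept its call with median centring.

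Of genes of coenzyme A turnover and the peroxisome, the setting of Nudt7, 31 were tested. In HCC against vehicle liver 3 fell and 1 rose, with a median of -0.25: Baat, which joins bile acids to amino acids (-1.94, SE 0.49; limma, adjusted p = 0.0171), Crot, the peroxisomal carnitine octanoyltransferase (-1.45, SE 0.26; 0.00101) and Pank1, a pantothenate kinase (-0.78, SE 0.22; 0.0346, or 0.0853 after quantile normalisation), while Nudt18 rose by 1.14 (SE 0.31; 0.0244, or 0.0731 with median centring). The HB comparison with non-tumour liver had more calls, in which 24 fell and 1 rose (Pank4, not with median centring), with a median of -2.18. Acox2, a branched-chain acyl-CoA oxidase, fell (-5.85, SE 0.36), Acot12 (-4.47, SE 0.33), Pank1 (-4.05, SE 0.21) and Scp2 (-3.21, SE 0.19).

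The remaining lists had at most 1 call each in HCC. Of 22 other HECT ligases none passed in limma (2 lower and 2 higher at an unadjusted p under 0.05), with a median of 0.18. In HB against non-tumour liver 6 fell and 8 rose (median 0.22), which became 10 and 1 with median centring (median -0.41); Hecw2 fell (-2.49, SE 0.39), and Herc3 rose by 1.74 (SE 0.36). Of 18 circadian clock genes, Per1 rose in HCC by 2.04 (SE 0.56; limma, adjusted p = 0.027), and in HB 1 fell (Hlf, -3.18, SE 0.42) and 3 rose, of which Bhlhe41 (2.14, SE 0.50) kept its call with median centring and Npas2 and Clock did not. Of 4 genes related to Lrtm1 none passed in HCC (none at an unadjusted p under 0.05 in limma), and 3 rose in HB, of which Lrrtm1 (2.89, SE 0.44) and Lrrtm2 (1.73, SE 0.32) kept their calls with median centring and Lrrtm3 did not. Per list, calls in HCC are to be set against 2.87% lower and 4.37% higher over all genes, and calls in HB against 22.4% lower and 34.1% higher; the HECT ligases lie near the latter shares.

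**Figure D5:**
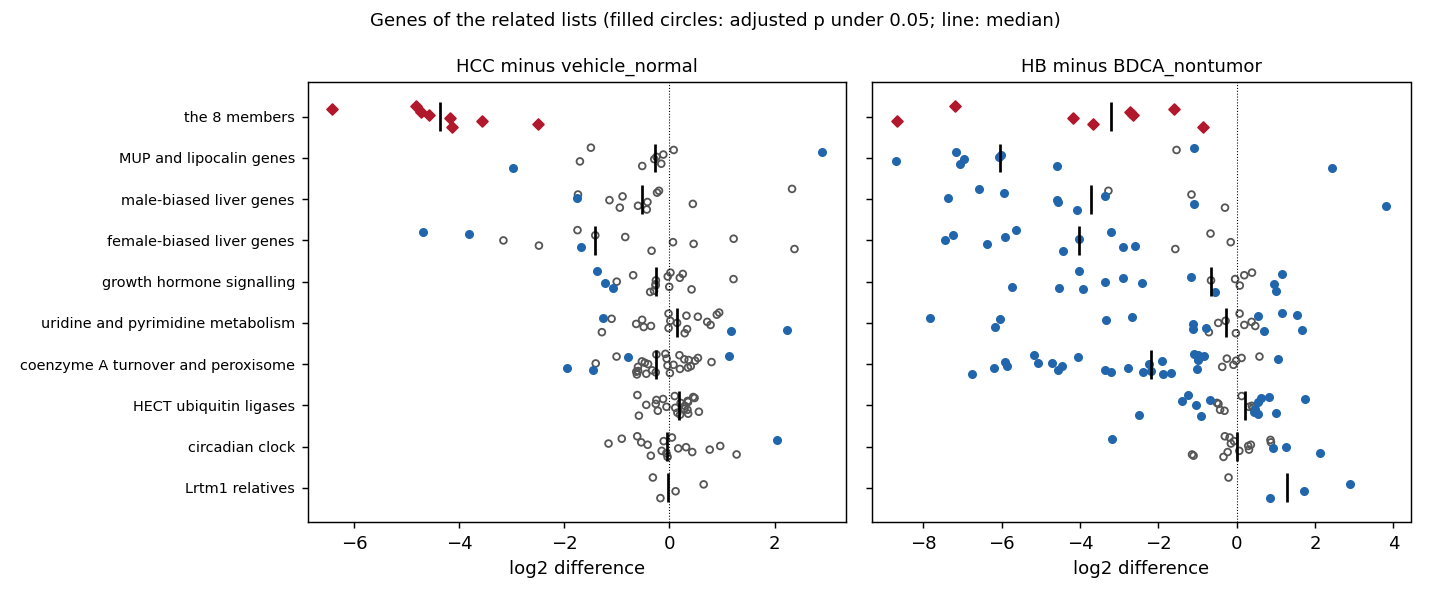
Log2 difference (x axis) of each gene in 9 related lists (rows) in HCC minus vehicle liver and HB minus non-tumour liver, filled where the adjusted p was under 0.05, with the list median as a line. The 8 genes themselves (diamonds, no test marked) have medians of -4.37 and -3.20. The list of urinary proteins and lipocalins, in which Mup5 is the only urinary protein gene, has medians of -0.27 and -6.04.

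RefSeq promoters (250 bases before the start, GRCm38.p6) were found for 7 of the 8 genes, 10 promoters in all, since some genes have several starts. The STAT5 and BCL6 core TTCNNNGAA, searched on both strands, was in none of the 10, and in 7.02% of 32851 mouse promoters. The C/EBP cores TTGCNCAA and TTGCAAT were each in 1 of the 10, in 1810046K07Rik and Nudt7, and in 2.61% and 1.96% of all promoters. The HNF1 motif GTTAAT was in 1 start of Upp2 (6.43% of all) and the TATA box TATAAA in the other start of Upp2, 29 bases upstream (12.4% of all). The HNF4-like core CAAAGTC and the direct repeat of AGGTCA with 1 base between were in none, and in 3.84% and 0.0335% of all promoters. None of these exact spellings was shared by several of the 8 genes. The printed Mup3 and Mup10 sequences both hold tatataaggac near the start of the gene, a spelling close to TATAAA that the search did not cover. A match or its absence in this window describes letters only.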

How the data were processed

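Affymetrix arrays of 24 liver samples (biotin-labelled after amplification of 10 ng RNA) were used. The authors deposited linear intensity values per probe set, made with MAS5 per the submitters' processing notes; each array's 2% trimmed mean was 500 when checked. Genome build and MAS5 version are not given in the sources used here. Of 45101 probe sets, 34945 name 1 gene, 932 several and 9160 none, by the platform annotation, and 64 are controls; only probe sets with 1 gene were named. Values were taken as log2(intensity + 16). Probe sets were kept whose 6th highest intensity exceeded 66.3, the 40th percentile of the table, and each gene was represented by its brightest kept probe set, giving 14086 genes. HCC replicates 3 and 4 were averaged, giving 23 samples and 5 for HCC. One limma fit (limma 3.58.1 in R 4.3.3, variance trend) covered all 4 groups, with Benjamini-Hochberg adjustment over all genes and a threshold of 0.05; the fit was tested on simulated data. Python 3.11.15, Biopython 1.88 and matplotlib 3.10.9 served for tables, alignment and plots. Array medians were 75.8 to 111.7 in vehicle liver, 78.3 to 145.2 in non-tumour liver, 76.8 to 132.4 in HCC and 143.8 to 202.1 in HB; the number of arrays limits the precision.

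The 8 genes and all lists were chosen with earlier results of these data known. Named are the 8 genes with every probe set and the 3 most correlated genes of each. Of the nearest tested genes on each side, those that passed in a tested comparison are named. Of each list, up to 4 genes with the smallest adjusted p in each tested comparison are named. Other genes, such as the few that rose against their list, were added after their values were seen. Of 193 listed symbols 157 were on the array and 148 tested genes were related to the 8. The 8 genes were tested only in HB against non-tumour liver; the other comparisons share arrays with the contrast that chose them. Alternatives were other pseudocounts (1 and 64), quantile normalisation, median centring, other filters, the mean of a gene's probe sets, no variance trend, array weights, separate arrays, each pair of groups alone, a replicate block, and leaving out arrays. RefSeq promoter sequences were matched by Entrez gene ID.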

Additional observations from a re-analysis of the deposited data

Results flagged for a closer look

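Within 32 sets of values (8 genes in 4 groups), 5 had 1 sample whose gap to its nearest neighbour took up more of the group's range than Dixon's critical value (0.71 for 5 samples, 0.625 for 6). Chance flags about 1 in 20 groups. Of these, 3 belong to Hectd2. Its non-tumour replicate 1 was at 6.82 in log2(intensity + 16), where the other 5 lay from 12.07 to 13.00, a gap of 0.85 of the range. Its averaged HCC replicates 3 and 4 were at 10.20, above the others' 7.62 to 8.08, a gap of 0.82. Its HB replicate 4 was at 5.42, below the others' 8.86 to 9.87, a gap of 0.77. Upp2 was flagged for vehicle replicate 3, at 14.25 above 13.15 to 13.52 (a gap of 0.66), and for HB replicate 5, at 5.73 above 4.02 to 4.41 (a gap of 0.77). HB replicate 5 is also 1 of the 2 HB arrays with high albumin signal (15782).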

How the results depend on the processing

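The count of the 8 genes lower in HB against non-tumour liver was 6 and ran from 6 to 8 over all settings, and that of related genes was 74 and ran from 70 to 95. Hectd2 reversed to 0.081 (limma, adjusted p = 0.89) with the mean of its probe sets, and no other gene of the 8 that was called lost its call under any setting run. The median of the 8 genes in HB against vehicle liver moved from -5.35 to -6.34 with a pseudocount of 1, -4.24 with 64 and -6.08 with median centring. In HCC against vehicle liver it moved from -4.37 to -3.50 with a pseudocount of 64 and -3.48 with the mean of probe sets. Related genes lower in HCC against vehicle liver numbered 12, but 4 without the Xist arrays, which left 2 vehicle arrays, and 7 to 17 with 1 array left out: 7 without HCC replicate 5, 8 without HCC replicate 2 or vehicle replicate 2. The all-gene median in HB against non-tumour liver shifted from 0.28 to -0.01 with quantile normalisation and -0.35 with median centring. Replicate numbers did not pair the arrays (same-number correlations mostly near 0, with 0.50 for HCC and non-tumour replicate 1). The fit with the replicate block on 24 arrays called 6 of the 8 genes and 75 related genes in HB against non-tumour liver, 15 related genes in HCC against vehicle liver, and gave a median of -4.22 for the 8 there. Values below 66.3 limit how far any fold can be read.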
